A study of Mus musculus with 4 samples.

Results

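The genes described here carry the natriuretic peptide and cGMP signal, measured by RNA-seq in granulosa cells (GCs) of the mouse ovary, the follicle cells around the oocyte, in culture. Of 25239 genes in the expression table, 10 belonged to this set, chosen by name: the ligand genes Nppc and Nppb, the receptor genes Npr1, Npr2 and Npr3, the soluble guanylyl cyclase subunits Gucy1a1 and Gucy1b1, the cGMP-dependent kinases Prkg1 and Prkg2, and the cGMP phosphodiesterase Pde5a. There, 8 stood under these symbols, and 2 stood under the older symbols Gucy1a3 and Gucy1b3, which RefSeq gives as synonyms of Gucy1a1 and Gucy1b1. The study had 2 control libraries and 2 libraries of cells treated with HDACi 4b, a small molecule inhibitor of the histone deacetylases HDAC1 and HDAC3. All cells were GCs from ovaries of wild-type C57BL/6 mice at postnatal day 24, without a transgene, and the culture time and dose for the sequenced cells were not given in the labels. The treatment notes of the samples mention tamoxifen and floxed Hdac3 mice, whereas titles and design speak of cultured wild-type cells, and the latter were followed. Whether replicate libraries stem from different cultures or mice is left unsaid in the labels, so p-values reflect library-to-library spread alone, and that spread may be technical.

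C-type natriuretic peptide (CNP), the product of Nppc, comes from mural GCs and acts on NPR2, a receptor that is itself a guanylyl cyclase, on cumulus and mural GCs. The cGMP formed there is shared with the oocyte and protects its cAMP, and a fall of cGMP after the surge of luteinizing hormone lets meiosis resume. NPR3 binds the same peptides without making cGMP and clears them, a soluble cyclase of an alpha and a beta subunit makes cGMP in response to nitric oxide, and PDE5 breaks cGMP down.

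HDACi 4b was followed by a near loss of the clearance receptor transcript Npr3, a moderate fall of Npr2 and a rise of Gucy1b1, while no change of the ligand Nppc was called. Levels were FPKM, reads scaled to transcript length and to the counted reads of the library, so levels of different genes can be set side by side. A gene was tested when its mean over the 4 libraries reached 1 FPKM, on log2(FPKM + 1) with limma, a linear model that shares the spread across genes, at a Benjamini-Hochberg adjusted p of 0.05 over all 12054 genes tested. The filter passed 6 members (Nppc, Npr1, Npr2, Npr3, Gucy1b1 and Pde5a), and 4 lay under it (Nppb, Gucy1a1, Prkg1 and Prkg2). Gucy1b1 reached it only through the treated libraries, with a mean of 2.37 against 0.657 FPKM in controls. Npr3 and, narrowly, Nppc reached it only through the controls. Gucy1a1, with 0.677 FPKM in controls, stayed under it. Which members were tested thus depended in part on their difference, which limits the count of calls. Of the 6 tested members 4 were called, 2 higher (Npr1 and Gucy1b1) and 2 lower (Npr2 and Npr3) in treated cells, where 60.5% of all tested genes were called. With 22.4% of all tested genes called higher and 38.1% called lower, a count of 4 in 6 is close to the background. The median log2 difference was 0.05 over the 6 members and -0.15 over all genes tested. Scaling by median ratios brought the latter to -0.0041, and the share of all calls that were higher went from 37.0% to 51.6%. Control and treated libraries did not overlap for 7 of the 10 members, among them all 6 that were tested, against 83.1% of all genes tested. The smallest two-sided p of an exact permutation test with 2 libraries in each group is 0.333, so each call rests on the spread that limma borrows from other genes.

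**Figure D1:**
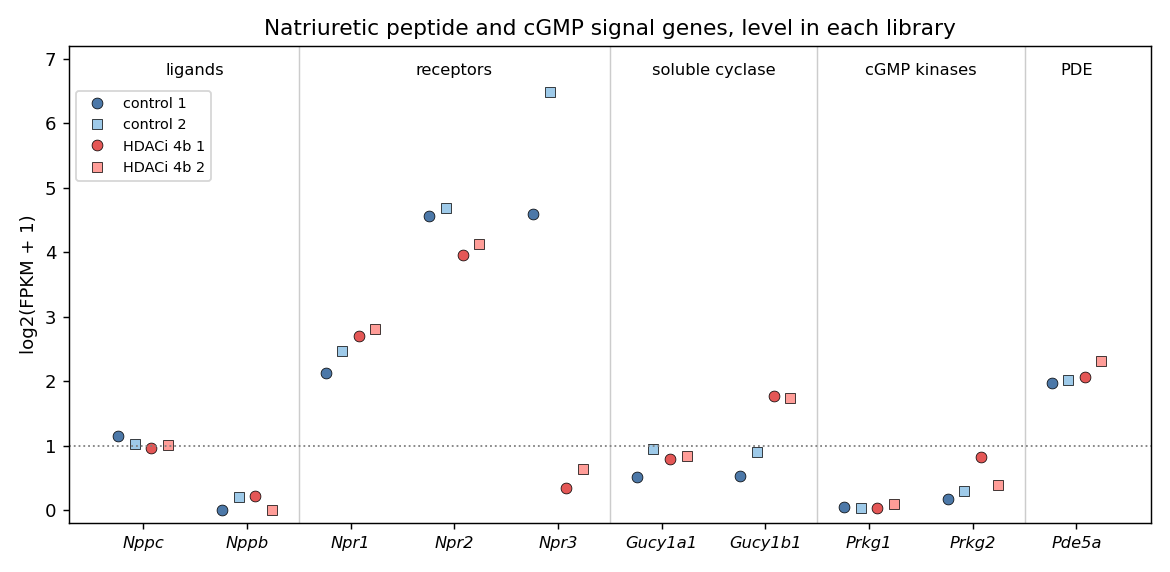
Level of each of the 10 genes in each of the 4 libraries, as log2(FPKM + 1), ordered by role, with the dotted line at 1 FPKM. Npr3 stands at 23.2 and 89.0 FPKM in the controls and under 1 FPKM in both treated libraries, and both Gucy1b1 values in treated cells lie above both control values.

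The libraries held between 15951875 and 17665107 counted reads each, as the steps between low values show. The GC label was checked against 11 GC markers, of which 10 had a mean of at least 1 FPKM, so the libraries held GC transcripts in both groups. Of these 10 markers, 4 were called higher (Fshr, Nr5a2, Gatm and Cyp11a1), 4 were called lower (Foxl2, Inha, Inhba and Esr2) and 2 were not called (Amh and Inhbb). Over all genes tested 60.5% were called. The controls differed from each other in both markers not called, with 41.4 and 6.57 FPKM for Inhbb and 2.11 and 0.712 FPKM for Amh. Inha, the inhibin alpha gene, had 1219 and 1260 FPKM in the controls and 438.0 and 582.7 FPKM in treated libraries, and the steroidogenic gene Cyp11a1 had 260.1 and 128.9 against 1094 and 933.1 FPKM. The aromatase gene Cyp19a1 was the marker under 1 FPKM, at 0.0682 to 0.592 FPKM. All 6 endothelial markers lay under a mean of 1 FPKM, and of 7 oocyte markers only Gdf9 reached it, with 0.530 to 2.85 FPKM. The 3 cumulus markers summed to 2.12 and 1.61 FPKM in the controls and 10.1 and 12.1 FPKM in treated libraries, mostly Tnfaip6. The 4 theca markers summed to 25.9 and 22.8 against 69.9 and 76.8 FPKM, mostly Fabp3, while the theca marker Ptch1 was called lower and the defining enzyme gene Cyp17a1 was at most 0.0285 FPKM. Markers of smooth muscle, fibroblasts, immune cells and the oocyte are given beside the genes they moved with, and the part of any of these lists in the members' values was not tested. In bulk RNA, fewer cells of a type and less RNA per cell cannot be told apart.

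Nppc was expressed at a low level in all libraries. It had 1.23 and 1.03 FPKM in the controls and 0.947 and 1.02 FPKM in the treated libraries. The groups came close without overlapping, since the lower control lay 1.01 times above the higher treated library. Behind these levels stood 21 and 19 control reads and 16 and 17 treated reads, so 1 read was worth about 0.0543 to 0.0602 FPKM. The log2 difference was -0.10 ± 0.12 (SE, n = 2 per group, limma adjusted p = 0.506), and it was not called in any of 9 alternative fits (adjusted p from 0.340 to 0.924). Counting alone gave a treated to control read ratio of 0.875 with a 95% exact interval of 0.534 to 1.42, so at this depth a moderate change in either direction was not detectable. Intervals of read ratios cover counting error only, since reads without molecular identifiers are not independent molecules.

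Nppb, which encodes the B-type peptide known from the heart and a ligand of NPR1, was nearly absent. It had 0 and 0.145 FPKM in the controls and 0.158 and 0 FPKM in the treated libraries, from 2 reads in 1 library of each group. A count of 0 allows up to 0.234 FPKM in control replicate 1 and 0.241 FPKM in HDACi 4b replicate 2 (3 reads). No difference was detectable at this depth.

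Npr2, the receptor that makes cGMP when CNP binds, was among the best expressed members and fell. It had 22.6 and 24.7 FPKM in the controls and 14.6 and 16.5 FPKM in the treated libraries, a mean of 23.7 ± 1.498 against 15.5 ± 1.31 FPKM (SD, n = 2 per group). Both treated libraries lay well below both controls, and the libraries within each group were close. The log2 difference was -0.58 ± 0.09 (SE, limma adjusted p = 0.00351). The call held in all 9 alternatives, with differences from -0.66 to -0.42 and adjusted p from 0.000568 to 0.0333. The smallest difference, -0.42, was that under median-ratio scaling.

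Npr1, the receptor guanylyl cyclase for the A-type and B-type peptides, stood lower than Npr2 in every library. It had 3.38 and 4.56 FPKM in the controls and 5.48 and 5.98 FPKM in the treated libraries. Both treated libraries were higher than both controls, by 1.20 times where they came closest. The log2 difference was 0.45 ± 0.13 (SE, limma adjusted p = 0.0348). This call was lost in 4 of 9 alternatives, namely without control replicate 1 (adjusted p = 0.0833), without HDACi 4b replicate 1 (0.111), without HDACi 4b replicate 2 (0.168) and with no filter on low genes (0.0863), within a range of adjusted p from 0.0108 to 0.168. The level of Npr2 was 6.68 and 5.43 times that of Npr1 in the controls and 2.66 and 2.75 times that of Npr1 in the treated libraries.

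Npr3, the clearance receptor, went from the most abundant member in control cells to under 1 FPKM in treated cells. It had 23.2 and 89.0 FPKM in the controls and 0.267 and 0.552 FPKM in the treated libraries. The groups were far apart, yet the controls themselves differed 3.84-fold and the treated libraries 2.07-fold, with replicate 2 higher in each group. The lowest control was 42.0 times the highest treated library, and the highest control 333 times the lowest treated library. The mean fell from 56.1 ± 46.5 to 0.410 ± 0.201 FPKM (SD, n = 2 per group), a 137-fold difference. The log2 difference was -5.06 ± 0.65 (SE, limma adjusted p = 0.00365). The SE of Npr3 was the widest among the tested members, against 0.09 for Npr2.

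The spread between the controls set Npr3 apart from most genes. Only 11 of 12054 tested genes, Npr3 included, had a difference between control libraries at least as large on the log2 scale, where Npr3 had 1.90 and the median gene 0.11. The corresponding values were 0.12 for Npr2, 0.34 for Npr1, 0.36 for Gucy1b1 and 0.05 for Pde5a. Reads behind the Npr3 values were 2642 and 10893 in controls and 30 and 61 in treated libraries, known only up to a common factor because the length that the authors used was not the annotated one. The call for Npr3 was lost with limma-voom on these reads (log2 difference -6.87, adjusted p = 0.125) and held in the other 8 alternatives, with adjusted p from 0.000528. Without control replicate 1 the difference was -6.00, and without control replicate 2 it was -4.11.

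Several markers of contractile and stromal cells were lower in the same libraries as Npr3, and others were higher. The 8 smooth muscle and pericyte markers summed to 178.8 and 264.4 FPKM in the controls and to 39.5 and 61.6 FPKM in the treated libraries. The actin gene Acta2 made up most of this sum, with 162.1 and 245.1 FPKM in the controls and 23.5 and 41.5 FPKM in the treated libraries. Of the 5 smooth muscle and pericyte markers tested, Acta2, Myh11 and Cnn1 were called lower, and Notch3 and Mcam were called higher. Notch3 had 0.363 and 0.408 FPKM in the controls and 2.62 and 3.05 FPKM in the treated libraries. It thus reached the filter only through the treated libraries, which limits its call. None of the 8 was at 0 in all libraries, 5 had a mean of at least 1 FPKM, and the defining markers Tagln and Rgs5 stayed under 1 FPKM in every library. The 7 fibroblast markers summed to 42.9 and 86.6 FPKM in the controls and to 13.9 and 23.1 FPKM in the treated libraries, and the 3 tested (Col1a1, Col1a2 and Col3a1) were called lower. Both treated libraries lay below both controls for 6 of the 7, where groups did not overlap for 83.1% of all genes tested. The fibroblast marker Pdgfra, under the filter, went the other way, with 0.485 and 0.638 FPKM in the controls and 0.664 and 0.794 FPKM in the treated libraries. Of the 6 immune markers 2 were tested, and they were called in opposite directions. Lyz2 had 57.6 and 90.2 FPKM in the controls and 18.0 and 20.0 FPKM in the treated libraries, and Cd68 had 6.73 and 10.8 against 37.6 and 27.1 FPKM. The immune sum was 66.7 and 103.9 FPKM in the controls and 56.2 and 47.7 FPKM in the treated libraries, and the leukocyte gene Ptprc was at most 0.0835 FPKM. In both sums of contractile and stromal markers replicate 2 was the higher library of each group, as it was for Npr3. Their part in the Npr3 values was not tested.

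The balance of the signalling receptor to the clearance receptor turned over between the groups. The level of Npr2 was 0.974 and 0.278 times that of Npr3 in the controls and 54.7 and 29.8 times that of Npr3 in the treated libraries. In control replicate 1 both receptors stood at nearly the same level, and in control replicate 2 Npr3 was the higher. In both treated libraries Npr2 was far the higher. The length behind the Npr3 levels was fitted at 6927 bases, against 9389 annotated, while that of Npr2 was the annotated one. The ratio within a library, and the place of Npr3 beside Npr2 in the controls, depend on that length. These ratios are descriptions, with no test.

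**Figure D2:**
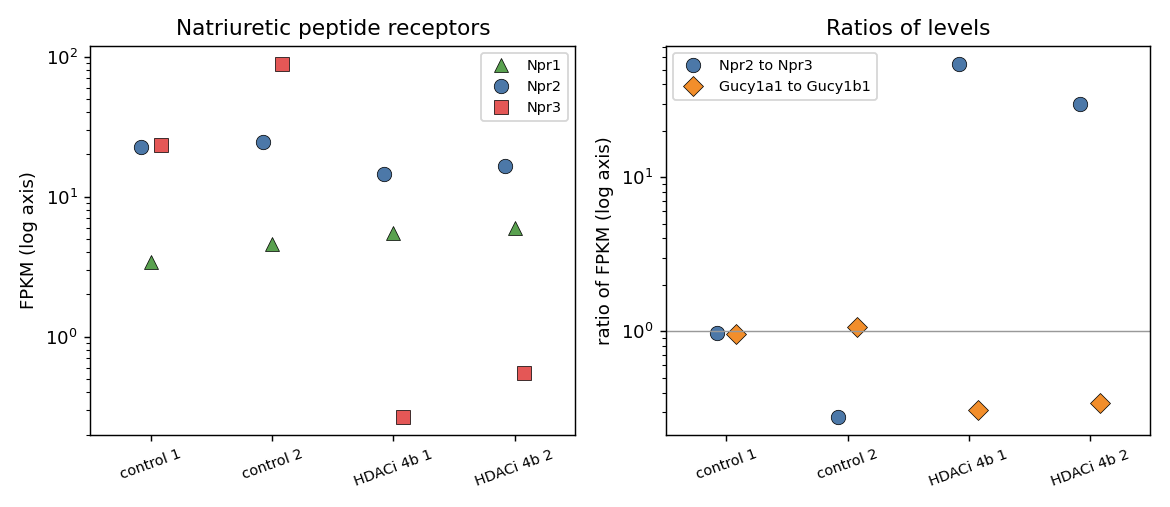
Left, FPKM of Npr1, Npr2 and Npr3 in each library on a log axis. Right, the ratios of Npr2 to Npr3 and of Gucy1a1 to Gucy1b1 in each library on a log axis, with a line at 1. Npr3 lies at or above Npr2 in both controls and far below it in both treated libraries, and the cyclase subunits stand near 1 in controls and near 0.3 in treated cells.

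The soluble guanylyl cyclase subunits did not move together. Gucy1b1, the beta subunit that binds heme, had 0.449 and 0.865 FPKM in the controls and 2.40 and 2.33 FPKM in the treated libraries. Both treated libraries were at least 2.69 times every control. The mean rose 3.60-fold, with a log2 difference of 1.03 ± 0.15 (SE, on log2 values with 1 added, where changes of low genes come out too small, limma adjusted p = 0.00334). The call held in all 9 alternatives (differences of 0.85 to 1.90, adjusted p from 0.000751 to 0.0347), and the highest value came from limma-voom on reads. The reads were 29 and 60 in controls and 153 and 146 in treated libraries.

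Gucy1a1, the alpha subunit with which the beta subunit forms the active enzyme, had 0.428 and 0.926 FPKM in the controls and 0.735 and 0.792 FPKM in the treated libraries. The treated libraries lay between the controls, so the groups overlapped. Gucy1a1 was under the filter, and where all genes were fitted it was not called (log2 difference 0.09, limma adjusted p = 0.731). The ratio of Gucy1a1 to Gucy1b1 was 0.952 and 1.07 in the controls and 0.306 and 0.340 in the treated libraries. The ratios of treated libraries lay below those of both controls, and the libraries of each group were close to each other. Control replicate 2 was about as much above control replicate 1 in one subunit as in the other.

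The cGMP-dependent kinases were scarcely expressed. Prkg2, the membrane-bound kinase, had 0.125 and 0.232 FPKM in the controls and 0.770 and 0.315 FPKM in the treated libraries, from 11, 22, 67 and 27 reads. The treated libraries were higher than the controls but differed from each other more than the lower of them differed from the controls. The ratio of treated to control reads was 3.02 with a 95% exact interval of 2.01 to 4.64 for counting error only. Without the filter Prkg2 was not called (limma adjusted p = 0.205), nor was it with limma-voom on reads (adjusted p = 0.0574). Prkg1, the kinase best known from smooth muscle, had 0.0312 and 0.0218 FPKM in the controls and 0.0237 and 0.0723 FPKM in the treated libraries. This corresponds to as few as 4, 3, 3 and 9 reads, and the groups overlapped. Among smooth muscle and pericyte markers, Acta2 was at least 23.5 FPKM in every library, while Tagln was at most 0.306 and Rgs5 at most 0.124 FPKM. Their part in the Prkg1 values was not tested.

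Pde5a, the phosphodiesterase specific for cGMP, changed little. It had 2.91 and 3.04 FPKM in the controls and 3.17 and 3.97 FPKM in the treated libraries. The groups did not overlap, but the gap between them was narrower than the gap between the treated libraries. The log2 difference was 0.20 ± 0.12 (SE, limma adjusted p = 0.195), and it was not called in any of the 9 alternatives (adjusted p from 0.0573 to 0.674).

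**Figure D3:**
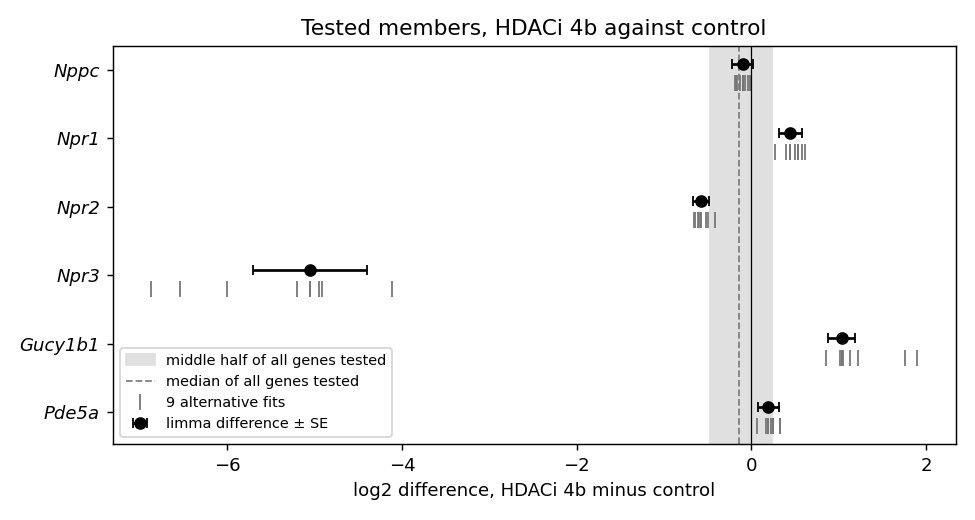
Log2 difference (HDACi 4b minus control, with SE) of the 6 tested members, with short bars for the 9 alternative fits and a grey band for the middle part of all genes tested, from the first to the last quartile. Npr3 lies at -5.06 with the widest scatter over alternatives, Gucy1b1 at 1.03, Npr2 at -0.58, and Nppc and Pde5a inside the band.

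Ranked by mean level, the control cells had Npr3 first, followed by Npr2, Npr1, Pde5a, Nppc, Gucy1a1, Gucy1b1, Prkg2, Nppb and Prkg1. Neighbours in that order overlapped between libraries for Npr3 and Npr2, for Gucy1a1 and Gucy1b1, for Prkg2 and Nppb, and for Nppb and Prkg1. In treated cells the order was Npr2, Npr1, Pde5a, Gucy1b1, Nppc, Gucy1a1, Prkg2, Npr3, Nppb and Prkg1. There the overlapping neighbours were Gucy1a1 and Prkg2, Prkg2 and Npr3, and Nppb and Prkg1. Npr3 thus went from rank 1 to rank 8, Gucy1b1 from rank 7 to rank 4, and Npr2, Npr1 and Pde5a kept their order among themselves. Within the controls 8 of 10 members were higher in replicate 2, against 48.5% of all tested genes. Within the treated libraries 7 of 10 were higher in replicate 2, against 55.6% of all tested genes. Both counts of members include the 4 under the filter.

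The promoters of the 3 members whose calls held in at least 8 of 9 alternatives are shown because the results turn on these genes. These are the 250 bases before the RefSeq start site in build GRCm38.p6, given 5′ to 3′ on the strand of the gene. Npr2 lies on the plus strand at chr4:43631685-43631934, Npr3 on the minus strand at chr15:11907372-11907621 and Gucy1b1 on the minus strand at chr3:82074712-82074961. Capitals mark matches on either strand to the GC box GGGCGG, the core letters that SP1 binds, to the FOXO letters GTAAACA, and to the cAMP response element TGACGTCA.
Npr2: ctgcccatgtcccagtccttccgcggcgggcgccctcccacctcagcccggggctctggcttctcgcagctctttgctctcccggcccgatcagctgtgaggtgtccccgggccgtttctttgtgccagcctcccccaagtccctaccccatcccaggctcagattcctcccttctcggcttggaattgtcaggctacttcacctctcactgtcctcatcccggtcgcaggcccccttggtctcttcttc
Npr3: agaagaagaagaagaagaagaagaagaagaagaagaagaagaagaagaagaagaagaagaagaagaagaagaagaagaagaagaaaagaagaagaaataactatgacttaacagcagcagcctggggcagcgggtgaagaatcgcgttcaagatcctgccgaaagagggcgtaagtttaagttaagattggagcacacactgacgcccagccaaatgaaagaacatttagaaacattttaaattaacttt
Gucy1b1: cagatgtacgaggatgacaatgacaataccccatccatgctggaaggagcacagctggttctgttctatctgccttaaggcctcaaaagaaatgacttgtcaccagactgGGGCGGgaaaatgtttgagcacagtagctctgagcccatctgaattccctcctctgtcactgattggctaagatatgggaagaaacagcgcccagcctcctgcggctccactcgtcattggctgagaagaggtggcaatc
The GC box was found in Gucy1b1 (1 match) and in neither Npr2 nor Npr3. Of 9 members with a RefSeq promoter (Prkg2 had no entry), 6 held at least 1 GC box at 1 of their start sites or more, namely Nppc, Npr1, Gucy1a1, Gucy1b1, Prkg1 and Pde5a, against 32.7% of 32851 promoters of that length. That share counts single promoters, whereas Gucy1a1 and Prkg1 had 2 start sites each, so the 2 figures are not in the same unit. The FOXO and cAMP letters were in 0 of the 9, against 3.17% and 1.55% of all promoters. The GC box contains a CpG and so counts toward the CpG number as well. The window of Npr3 was poor in G and C (38.8%) and began with a long GAA repeat, with 6 CpG, while that of Npr2 had 64.4% and 13 CpG and that of Gucy1b1 51.2% and 5 CpG, where the median promoter had 6 CpG. Exons of the antisense noncoding genes Gm12473 and Gm5144 cover 167 bases of the Npr2 window and 93 bases of the Npr3 window. No binding or histone mark was measured in these libraries, and a match is a description of the letters only.

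The genes with the profile most like a member were found by the Euclidean distance between log2(FPKM + 1) profiles over the 4 libraries, each centred on its own mean, over the genes tested. For Npr2 they were Tef, Tmem127 and Slc7a2, at distances of 0.00908, 0.0103 and 0.0124. Tef, a PAR bZIP transcription factor, had 13.4 and 14.7 FPKM in the controls and 8.45 and 9.65 FPKM in the treated libraries. For Npr3 the nearest genes were Atoh8, Col10a1 and Pik3r1, at distances of 1.04, 1.40 and 1.54, so that no gene followed it closely. Atoh8, a bHLH transcription factor, had 36.4 and 52.2 FPKM in the controls and 0.467 and 0.925 FPKM in the treated libraries. For Gucy1b1 they were Stx11, Arhgdib and Gm13394, at distances of 0.0329, 0.037 and 0.0518. Over 4 libraries many genes share such a profile, and the likeness is a description only.

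Other genes that make, move or read cGMP changed in both directions. The list held 52 genes, of which 44 were in the table and 20 reached the filter. Of these 20, 7 were called higher, 10 lower and 3 not called, 17 calls in all, where 60.5% of all tested genes were called. Among the called genes, Pde9a and Gja4 reached the filter only through the treated libraries (control means of 0.495 and 0.345 FPKM). Mme reached it only through the controls (treated mean of 0.763 FPKM). Their median log2 difference was -0.08, against -0.15 over all genes tested. Fewer of these genes were called when either treated library was left out, and fewer of all genes tested were called in the same fits.

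Enzymes that supply GTP, the substrate of the cyclases, were split. The IMP dehydrogenase Impdh1 rose from 36.9 and 31.7 FPKM in the controls to 50.9 FPKM in each treated library (log2 difference 0.56 ± 0.09, limma adjusted p = 0.00399). Its paralog Impdh2 fell by 0.20 (adjusted p = 0.0365), a call that was lost in 7 of 9 alternatives (adjusted p up to 0.590). Gmps, which makes GMP, fell by 0.48 ± 0.07 (adjusted p = 0.00281), and the guanylate kinase Guk1 rose by 0.32 ± 0.08 (adjusted p = 0.0167), a call lost without either treated library (0.0917 and 0.0953). The cyclic nucleotide exporter Abcc4 rose from 8.44 and 7.36 FPKM in the controls to 16.5 and 15.8 FPKM in treated cells, by 0.95 ± 0.09 (adjusted p = 0.000705), with adjusted p of at most 0.0139 over the alternatives.

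The gap junction gene Gja1, whose product connexin 43 joins GCs to each other, had 327.1 and 272.7 FPKM in the controls and 43.8 and 46.7 FPKM in the treated libraries. It was the best expressed gene of the list. It fell by 2.70 ± 0.10 on the log2 scale (limma adjusted p = 0.00011). Peptide-processing enzymes were lower, with Furin, a proprotein convertase, at 17.0 and 18.5 against 12.9 and 13.2 FPKM, a fall by 0.41 ± 0.07 (adjusted p = 0.00573) that missed the threshold without HDACi 4b replicate 1 (0.0504). Ide, an insulin-degrading protease that can also cleave natriuretic peptides, fell by 0.39 ± 0.09 (adjusted p = 0.0161), and this call was lost in 3 of 9 alternatives, without HDACi 4b replicate 1 (0.0933), without HDACi 4b replicate 2 (0.0923) and under median-ratio scaling (0.090). Pde6d, a prenyl-binding protein named as a phosphodiesterase subunit, rose by 0.23 ± 0.06 (adjusted p = 0.0224), a call lost without control replicate 2 (0.0517), HDACi 4b replicate 1 (0.122) or HDACi 4b replicate 2 (0.101).

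Among substrates and partners of the kinases, the myosin phosphatase subunit Ppp1r12a fell by 0.72 ± 0.09 (limma adjusted p = 0.0016). Vasp was at 43.9 to 46.3 FPKM in all libraries and was not called (adjusted p = 0.636), except under median-ratio scaling (0.0385). Rgs2, a regulator of G protein signalling, had 23.7 and 14.7 FPKM in the controls and 28.6 and 35.3 FPKM in the treated libraries. It was not called (log2 difference 0.73 ± 0.25, adjusted p = 0.0607), and it was called without control replicate 1 (0.00565) and under median-ratio scaling (0.0326).

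A further 5 genes of this list were named after their values were seen. Mme, the membrane protease neprilysin, which degrades natriuretic peptides, had 3.76 and 6.14 FPKM in the controls and 0.727 and 0.798 FPKM in the treated libraries, a log2 difference of -1.73 ± 0.21 (limma adjusted p = 0.00206). It was thus lower in the treated libraries together with Npr3, the receptor that clears the same peptides. Pde9a, a phosphodiesterase with high affinity for cGMP, rose from 0.451 and 0.539 FPKM to 1.46 and 1.86 FPKM (0.83 ± 0.14, limma adjusted p = 0.00449). Of the 4 phosphodiesterases of the list that were tested, 2 were called higher (Pde6d and Pde9a) and 1 lower, and the last was not called. The inducible nitric oxide synthase Nos2, whose product nitric oxide activates the soluble cyclase, had 8.44 and 4.21 FPKM in the controls and 1.76 and 1.72 FPKM in treated cells (-1.36 ± 0.30, adjusted p = 0.018, up to 0.0773 over the alternatives). Gja4, whose product connexin 37 forms the junctions between oocyte and GCs and is known as the connexin of the oocyte side, rose from 0.253 and 0.437 FPKM to 2.20 and 2.01 FPKM (1.21 ± 0.13, adjusted p = 0.00118). Both treated libraries were also above both controls for 5 of 7 oocyte markers (Bmp15, Zp2, Zp3, Ooep and Nlrp5), which lay under the filter. Of all genes tested, 83.1% had groups that did not overlap, in either direction. Zp2 was at most 0.276 and Nlrp5 at most 0.116 FPKM. The groups overlapped for Zp1 and for Gdf9, the only oocyte marker tested. Gdf9 had 2.85 and 0.530 against 1.82 and 2.50 FPKM and was not called (limma adjusted p = 0.528). Ooep had 0.114 and 0.212 FPKM in the controls and 1.15 and 1.76 FPKM in treated libraries, and the 7 summed to 3.26 and 0.888 against 3.79 and 6.14 FPKM. Their part in the Gja4 values was not tested. Mrvi1, a Prkg1 partner in smooth muscle, lay under the filter at 0.312 and 0.456 FPKM in the controls and 0.0452 and 0.0826 FPKM in treated cells.

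**Figure D4:**
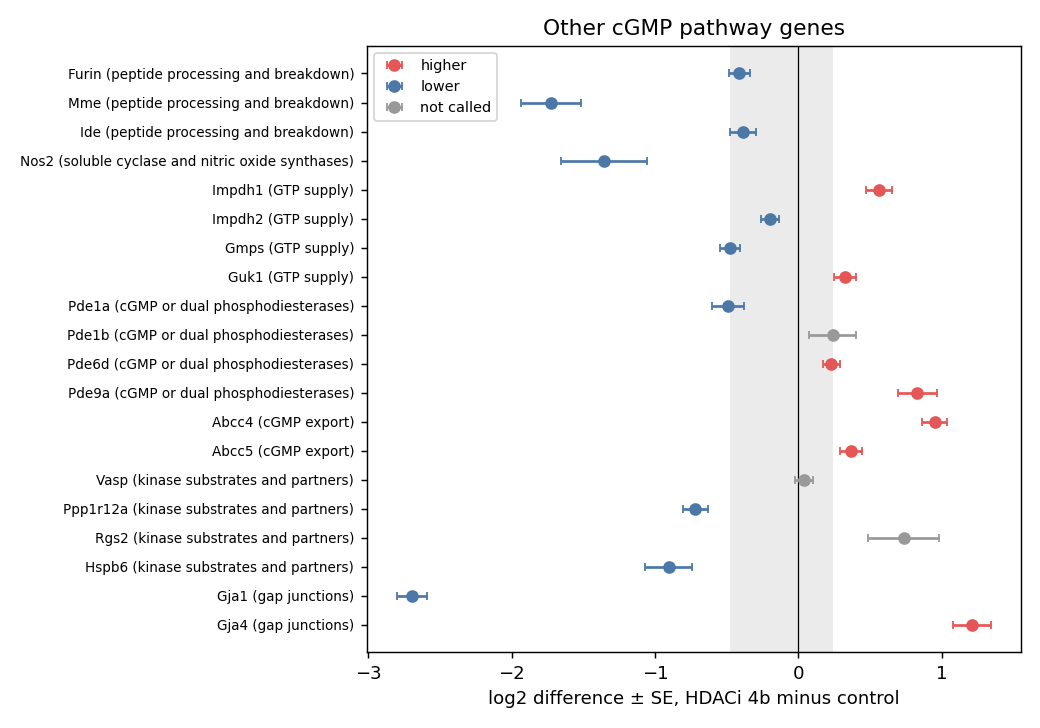
Log2 difference with SE (HDACi 4b minus control) of the 20 tested genes among the other cGMP pathway genes, coloured by call, with a grey band from the first to the last quartile of all genes tested. Gja1 lies furthest to the left at -2.70 and Gja4 furthest to the right at 1.21.

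Some member values can hold reads of other genes. On the opposite strand Gm16048 shares 11.7% of the exon bases of Npr1 and Gm12473 shares 5.70% of those of Npr2. Gm5144 shares 3.42% of those of Npr3 and 4930447N08Rik 0.559% of those of Pde5a, and no level was available for either. Without strand such reads cannot be told apart. Gm16048 had at most 0.186 FPKM and Gm12473 0.533 to 2.15 FPKM, and the sources used here do not say whether counting used strand.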

How the data were processed

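RNA-seq was made from total RNA of cultured GCs in 2 control and 2 HDACi 4b libraries, grouped by sample titles, by Illumina TruSeq preparation. Bowtie 0.12.2 and build mm8 are named in the submitters' processing notes, and the sources used here give neither counter nor annotation. The authors deposited FPKM, 1 column per library, a unit settled from the values. The members and lists were chosen with earlier results of these data known.

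With GENCODE M21 exon lengths (168 of 24063 genes through an older symbol), the FPKM of 90.6% of these genes came out as whole read numbers in every library (tolerance 0.01 reads), and for 3432 genes reads were known up to a factor. These lengths belong to a later build than mm8. The only coordinates given are those of promoter windows, taken from RefSeq in build GRCm38.p6. The table holds 18 repeated names. Between libraries of a group the mean chi-square per gene was 15.3 (controls) and 5.72 (HDACi 4b), so no library was a copy.

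Genes averaging 1 FPKM or more were fitted on log2(FPKM + 1), pseudocount 1, in R 4.3.3 by limma 3.58.1 with robust, trended moderation and no covariates (two-sided, Benjamini-Hochberg, threshold 0.05). The code was tested on 5 simulated data sets with 200 changed genes each. It recovered 90.0% of 2-fold and 98.3% of 4-fold changes. On average 8.29% of its calls were false, more than the threshold of 0.05 aims for. Far fewer genes were changed there than were called here, so this share cannot be carried over to these data. The 9 alternatives were each library left out in turn, median-ratio scaling, a block for replicate number, a pseudocount of 0.1, all genes unfiltered, and limma-voom on the whole reads of genes with 10 or more in 2 libraries. All members were named, of other cGMP genes the 12 highest by mean FPKM among those tested, and the 3 nearest profiles. Exact intervals are conditional binomial at 95%. Figures were drawn with matplotlib 3.10.9.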

Additional observations from a re-analysis of the deposited data

How the results depend on the processing

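The calls for Npr2 and Gucy1b1 held in all 9 alternatives, and Nppc and Pde5a were not called in any. Npr1 kept its direction but was not called with no filter (0.45), nor in 3 of the 4 fits without 1 library, where its difference ran from 0.28 to 0.62. Npr3 was not called with limma-voom on recovered reads (-6.87) and ran from -6.00 to -4.11 without 1 library. The cause was not tested. The members called were 4, and 3 to 4 without 1 library. Over all genes the calls ran from 4571 to 6717 without 1 library, against 7297, with 4571 without HDACi 4b replicate 1. The alternatives for the other cGMP genes were added after seeing the data, and their calls ran from 9 to 17 without 1 library. With the replicate number as a block 7315 genes and the same number of members, 4, were called. The differences between replicate 1 and 2 correlated at 0.088 across genes between the groups. This value cannot decide whether libraries with the same number were paired, since a shared effect may touch few genes. Where a library was left out, the lone library of its group was assumed to vary like the other group. Low depth limits Nppb, Prkg1, Prkg2 and Nppc, with at most 67 reads in any library.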
